A study of Lupinus albus with 12 samples.

Results

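Root tips of white lupin (Lupinus albus) kept in 10 mM sucrose for 40 min were compared with root tips of untreated plants, gene by gene. The comparison rests on 6 of the 12 libraries of a time course, 3 from the 40 min group and 3 from the control group, chosen by their labels alone. All plants were wildtype seedlings of the cultivar Amiga, raised without soil in Hoagland nutrient solution, and each library holds RNA of 1 plant, so replicates are separate plants. Treated plants had sucrose added to their solution, whereas controls were harvested at 0 min with nothing added. Handling, a mock addition, time of day and sucrose can therefore not be told apart in this design. Sections of 4 to 5 cm including the tip were pooled within each plant, and they hold the root cap, the meristem, elongating cells and more mature root. In such whole-tissue RNA, fewer cells of a type and less RNA per cell cannot be told apart. Age at harvest is not given in the sources used here.

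Sucrose reaches root tips through the phloem and is there cleaved by sucrose synthase or invertase to feed growth. In Arabidopsis it also acts as a signal: its level is mirrored by trehalose 6-phosphate, which restrains the kinase SnRK1, a switch that favours the use of reserves such as starch when carbon is scarce. Sugar signals meet those of abscisic acid, a hormone of water deficit and growth arrest, and sugar supply and oxygen supply together set how much of the carbon is fermented. White lupin is known for cluster roots, short dense side roots that release organic acids under phosphate shortage, whose formation sucrose promotes.

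Reads per library numbered 54369867, 58906006 and 63481050 in the controls and 60412399, 65775749 and 77259779 at 40 min, within the range of 35050877 to 105299704 of all 12 libraries. Levels are given as CPM, counts scaled to library size with TMM factors. In a principal component analysis of log2 CPM, 20 min replicate 2 and 80 min replicate 3 lay apart from the other plants of their own groups. They lay at 156 and 108 on the first component, where the other 20 min plants lay at 10.6 and -21.0. The other 80 min plants lay further out than replicate 3, at -145 and -129. On the second component the other 20 min plants lay far out, at -201 and -140, with replicate 2 at 44.3. These positions do not show which plants of the 2 groups were unusual. Neither 20 min replicate 2 nor 80 min replicate 3 belongs to the comparison. Both enter the estimate of the spread between plants, and calls without them are given beside those of the full fit. On the first component 40 min replicate 2 was the compared library nearest to them, at 85.7. The other 40 min plants had values of -20.05 and -10.7 there. The highest control was at 33.5. Photosynthesis genes, which mark green shoot tissue, summed to 753 to 934 CPM in the controls and 517 to 908 CPM at 40 min, ranges that overlap, with 1 of 108 members below an unadjusted p of 0.05, a RuBisCO small subunit (Lalb_Chr13g0300171) with 219, 225 and 90.2 CPM in the controls and 22.0, 13.0 and 45.2 CPM at 40 min. Summed levels also overlapped between the groups for the markers of endodermis, of xylem walls and of dividing cells. The early nodulin-93 genes and the phloem markers, whose sums did not overlap, are described further on. Clock and light genes, which follow time of day, summed to 569, 362 and 298 CPM in the controls and 284, 253 and 236 CPM at 40 min, with 2 of 15 lower at an unadjusted p below 0.05, 0 called by edgeR and 0 by DESeq2. GIGANTEA (Lalb_Chr02g0141571), a clock gene, had 275, 83.0 and 22.2 CPM in the controls and 42.0, 6.55 and 12.0 CPM at 40 min, so untreated plants already differed widely in it.

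At 40 min 26 of 28980 genes tested differed from the controls with an edgeR quasi-likelihood adjusted p below 0.05, which is 0.0897% of the genes. Of these 1 was higher (0.00345%) and 25 were lower (0.0863%). At an unadjusted p below 0.05 there were 600 higher genes (2.07%) and 1136 lower ones (3.92%), in all 5.99%. DESeq2 on the same counts called 127 higher (0.441%) and 448 lower genes (1.55%), in all 1.99%, and the authors' deposited table lists 126 higher (0.428%) and 443 lower genes (1.5%) below its adjusted p of 0.05. All 26 genes were also below 0.05 in the authors' deposited table and in DESeq2. Without the 2 libraries that lay apart edgeR called 249 genes, 12 higher and 237 lower (0.805%), and all 26 were among them. These libraries were picked for their distance from their own groups, so leaving them out takes spread out of the shared estimate. More calls were therefore likely in advance, and fewer plants remain at 20 and 80 min. Counts from this fit, here and below, are a description and no separate support. The count was 0 without control replicate 1, without any of the 40 min libraries or without 80 min replicate 1, and 3 without control replicate 2. It was 9, 156 and 11 without 20 min replicates 1, 2 and 3, 10 and 32 without 80 min replicates 2 and 3, and 58 without control replicate 3. The 6 compared libraries alone gave 1 call, of a gene not among the 26.

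**Figure D1:**
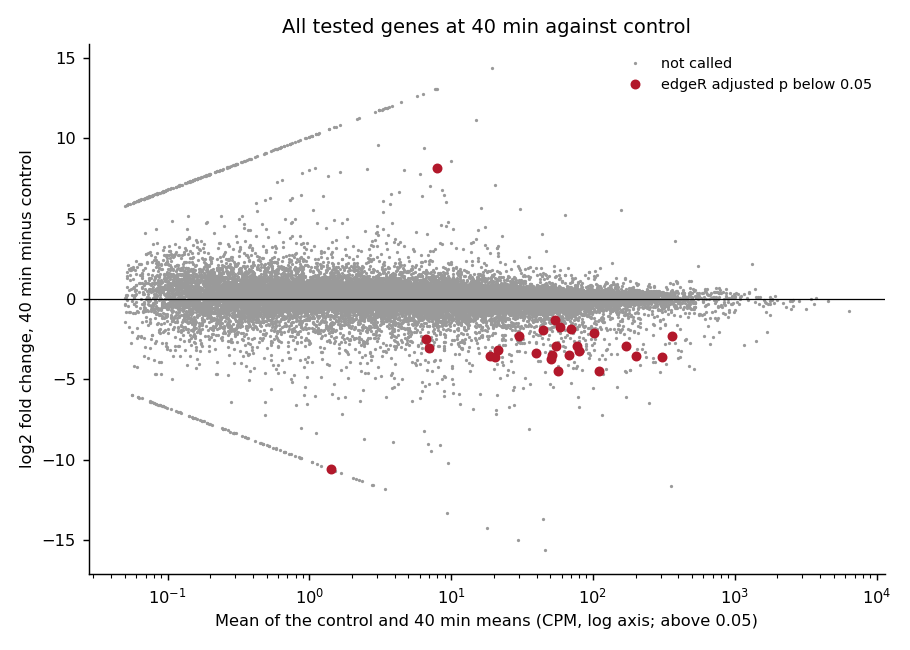
Each point is a gene tested at 40 min against control, with the mean of the control and 40 min levels across (CPM, log axis) and the log2 fold change up the side. Red points are the 26 genes called by edgeR, 25 of which lie below 0, between -10.6 and -1.33. The straight rows of grey points at the upper and lower edge are genes with reads in 1 group alone.

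The 25 lower genes had a median log2 fold change of -3.18, a 9.06-fold lower level, while the median over all genes tested was 0.08. In each of the 25 the highest 40 min plant lay below the lowest control, a separation that 8.35% of all genes tested showed in this direction and 6.9% in the other. Treated plants resembled each other in these genes. The median coefficient of variation was 16.3% over those with reads at 40 min, against 34.5% among the controls. Over all genes with a mean of at least 5 CPM it was 23.4% at 40 min and 17.1% among the controls. The genes were picked by a test on these same libraries that favours separate groups with little spread. Their separation and spread are therefore given as a description. Control replicate 3 was the lowest control in 23 of the 25 genes, and replicates 1 and 2 were the highest in 13 and 12. Among all genes tested control replicate 3 was lowest in 34.1%, and among the 1136 genes lower at an unadjusted p below 0.05 in 69.5%. The 26 genes lie on 15 chromosomes. A pair of them, an AT-hook gene and a RING ubiquitin ligase gene on chromosome 20, lie 5 genes apart in the annotation.

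**Figure D2:**
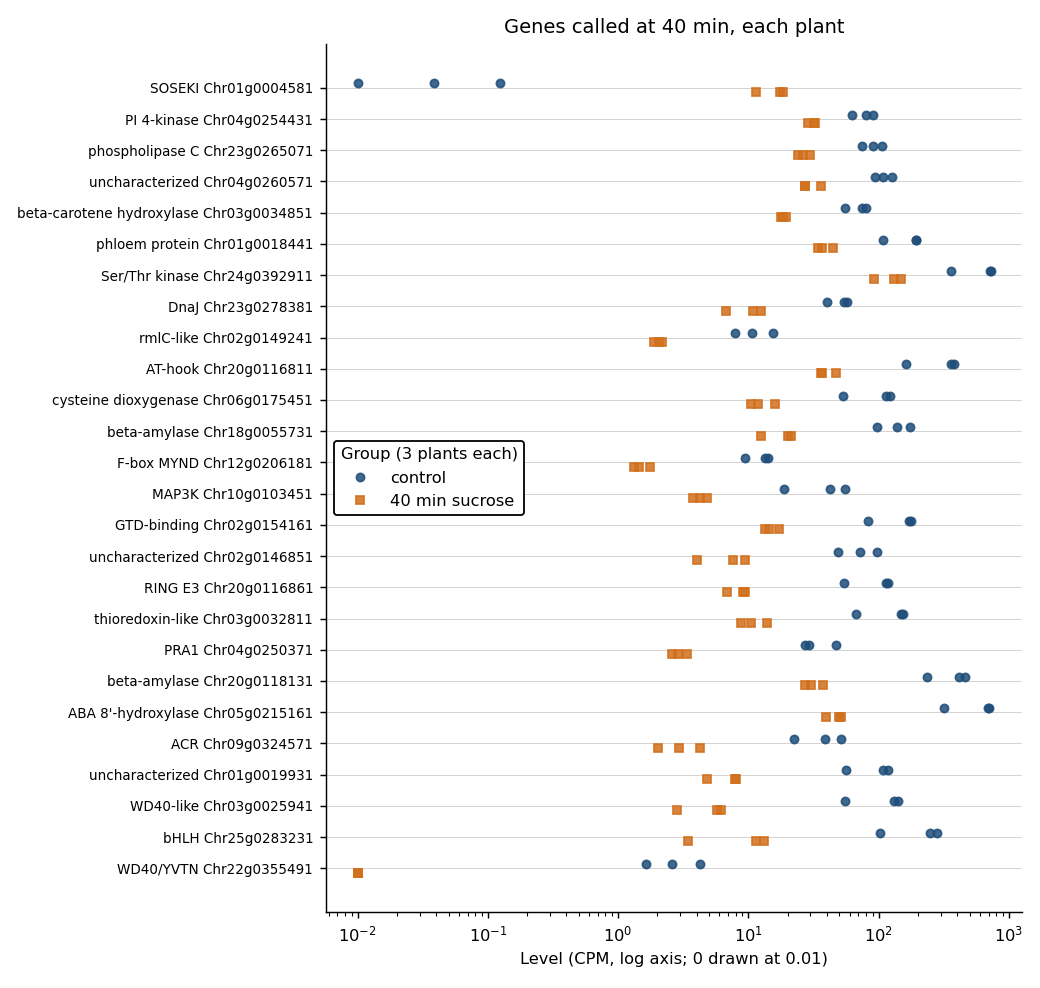
Levels of the 26 called genes in each plant (CPM, log axis), with controls as blue circles and 40 min plants as orange squares, ordered by log2 fold change. In every gene the 3 treated plants lie on 1 side of the 3 controls, and the left-most blue circle of most lower genes is control replicate 3.

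The gene called higher codes for a SOSEKI protein (Lalb_Chr01g0004581), whose Arabidopsis relatives sit at cell corners and edges and take part in orienting cell division. It was almost silent in untreated roots, with 0.04, 0.12 and 0 CPM in control replicates 1 to 3, from 2, 7 and 0 reads. At 40 min it stood at 18.5, 11.6 and 17.6 CPM. All treated plants were far above all controls, and the fold change on the log2 scale was 8.16 (SE 0.89, edgeR adjusted p = 0.0167). Its fitted fold change rests on those few control reads and is uncertain to that extent.

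Starch breakdown was led by a pair of beta-amylases, enzymes that clip maltose from the ends of starch chains. Beta-amylase Lalb_Chr20g0118131 stood at 459, 411 and 237 CPM in the controls and at 27.3, 37.2 and 30.4 CPM at 40 min. The treated plants lay close together and far below control replicate 3, the lowest control. It fell by 3.55 on the log2 scale (SE 0.42, edgeR adjusted p = 0.0216). Beta-amylase Lalb_Chr18g0055731 stood at 174, 139 and 97.2 CPM in the controls and at 20.2, 12.6 and 21.3 CPM at 40 min, again without overlap. Its fold change on the log2 scale was -2.92 (SE 0.39, edgeR adjusted p = 0.0304). Of 14 beta-amylase genes tested, these 2 were called, and the levels of all 14 summed to 769, 656 and 499 CPM in the controls and 166, 175 and 161 CPM at 40 min. Another beta-amylase, Lalb_Chr24g0398421, had 19.3, 14.5 and 20.4 CPM in the controls and 22.3, 31.1 and 26.3 CPM at 40 min, and did not pass the test.

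The wider list of starch breakdown held 30 tested genes, among them alpha-amylases, which cut starch chains internally, and glucan, water dikinases, which phosphorylate the granule surface. Its median log2 fold change was -0.08, with 14 members above and 16 below 0, and edgeR called the 2 beta-amylases and no other member. At an unadjusted p below 0.05 there were 3 members in each direction, and DESeq2 called 2 lower. Alpha-amylase Lalb_Chr14g0368691 had 55.0, 51.9 and 21.8 CPM in the controls and 0, 2.82 and 1.41 CPM at 40 min, but did not pass (log2 fold change -4.92 with an SE of 2.06, edgeR adjusted p = 0.796). Starch synthesis genes numbered 22, with 0 called by edgeR, 0 at an unadjusted p below 0.05 and 0 by DESeq2, and summed to 406 to 507 CPM in the controls and 376 to 452 CPM at 40 min. The sums of starch synthesis thus overlapped between the groups, while those of starch breakdown, at 690 to 1045 and 350 to 430 CPM, did not. The latter include the 2 called beta-amylases, which made up most of the difference. Control and 40 min means were 895.5 and 396.5 CPM for the list. They were 369 and 31.6 CPM for Lalb_Chr20g0118131 and 137 and 18.0 CPM for Lalb_Chr18g0055731.

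**Figure D3:**
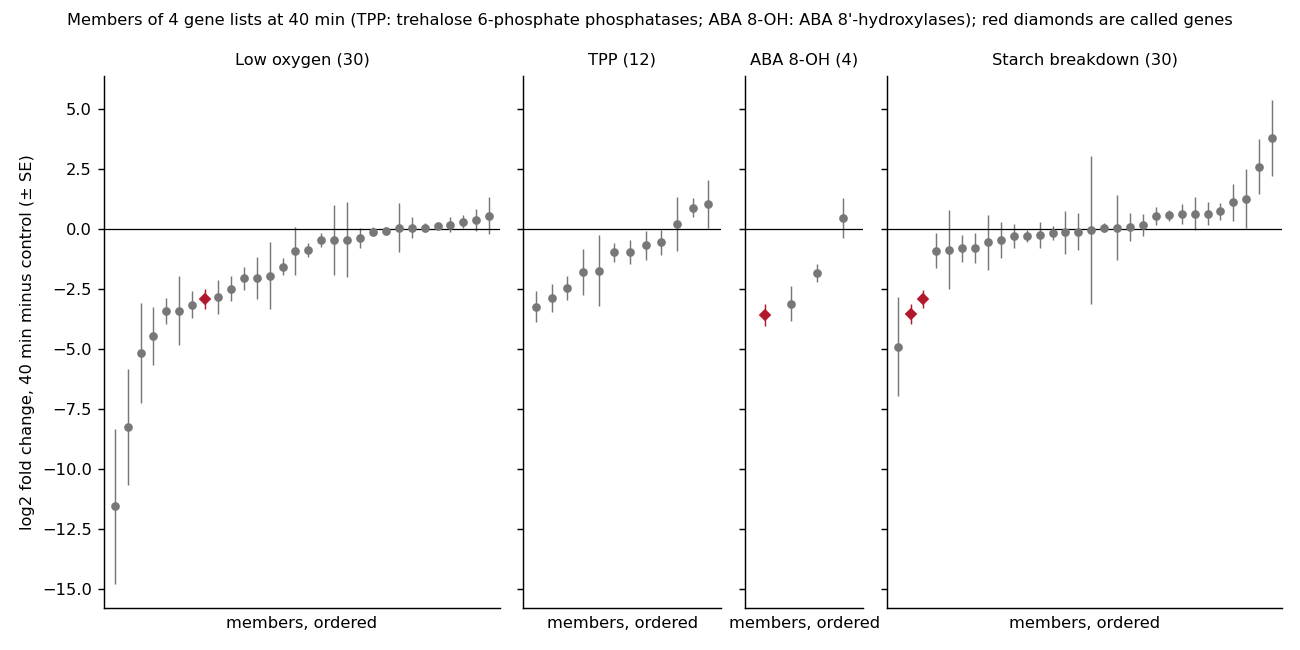
Log2 fold change at 40 min with its SE for every tested member of 4 gene lists, ordered from lowest to highest within each list. Red diamonds are genes called by edgeR. Most low oxygen genes (22 of 30) and trehalose 6-phosphate phosphatases (9 of 12) lie below 0, and starch breakdown genes lie on both sides.

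Trehalose 6-phosphate phosphatases remove the phosphate from trehalose 6-phosphate and so end that signal. The levels of the 12 tested genes summed to 597, 546 and 435 CPM in the controls and to 157, 202 and 213 CPM at 40 min, with no overlap. Separate sums alone do not set a list apart, since those of redox, bZIP, nitrogen and gibberellin genes were also separate. None of the 12 phosphatases was called by edgeR over all genes. At an unadjusted p below 0.05, 4 were lower (33.3%, against 3.92% of all genes tested), and DESeq2 called 3 lower. Without the 2 libraries that lay apart edgeR called 3. Phosphatase Lalb_Chr08g0241961 stood at 218, 209 and 95.4 CPM in the controls and 21.1, 18.6 and 30.7 CPM at 40 min (log2 fold change -2.89 with an SE of 0.58, edgeR adjusted p = 0.165). Phosphatase Lalb_Chr12g0203741 stood at 107, 115 and 46.8 CPM against 6.78, 8.10 and 13.5 CPM (log2 fold change -3.24 with an SE of 0.66, edgeR adjusted p = 0.167). In these 2 genes control replicate 3 was less than control replicates 1 and 2 and still above every treated plant.

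Trehalose phosphate synthases, which make the signal, did not share this pattern of sums. The 15 tested genes summed to 602 to 654 CPM in the controls and 357 to 671 CPM at 40 min, with a median log2 fold change of -0.03. None was called by edgeR or DESeq2, and 1 was higher at an unadjusted p below 0.05, Lalb_Chr20g0109161 with 10.0, 12.6 and 20.1 CPM in the controls and 32.1, 19.0 and 26.5 CPM at 40 min. For this gene 40 min replicate 2 lay below control replicate 3, so the groups overlapped.

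FLZ zinc finger proteins bind the SnRK1 kinase in Arabidopsis and act as its adaptors. The 21 tested FLZ genes summed to 1407, 1578 and 927 CPM in the controls and 428, 543 and 620 CPM at 40 min. Again 0 were called by edgeR, but 5 were lower at an unadjusted p below 0.05 and DESeq2 called 5 lower. FLZ gene Lalb_Chr08g0232731 stood at 360, 381 and 208 CPM in the controls and 68.0, 105 and 117 CPM at 40 min (log2 fold change -1.71 with an SE of 0.40, edgeR adjusted p = 0.255). The groups did not overlap, although control replicate 3 was closer to the treated plants than the other controls were. Without the 2 libraries that lay apart edgeR called 2 of them. The 5 FLZ genes with an unadjusted p below 0.05 were also the only such members in the list of 31 genes for SnRK1, TOR and FLZ. They made up 16.1% of that list, against 3.92% lower among all genes tested. The sums of the list were 1085 to 1735 and 594 to 779 CPM. Sugar starvation genes, such as asparagine synthetase and enzymes of branched-chain amino acid breakdown, had sums of 2671 to 3266 CPM in the controls and 1211 to 4816 CPM at 40 min. Their widest spread was thus among treated plants, and of 26 members 1 was higher and 1 lower at an unadjusted p below 0.05, with 0 called by edgeR and 1 in each direction by DESeq2.

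Abscisic acid 8'-hydroxylases start the breakdown of abscisic acid. Hydroxylase Lalb_Chr05g0215161 stood at 699, 688 and 319 CPM in the controls and at 51.6, 39.8 and 49.9 CPM at 40 min. The treated plants varied little and lay below every control, and the gene fell by 3.59 on the log2 scale (SE 0.47, edgeR adjusted p = 0.0300). Hydroxylases Lalb_Chr09g0325021 and Lalb_Chr16g0380411 did not pass, with log2 fold changes of -3.12 (SE 0.71, edgeR adjusted p = 0.235) and -1.86 (SE 0.38, edgeR adjusted p = 0.173). The former had 399, 487 and 219 CPM in the controls and 31.4, 40.2 and 55.5 CPM at 40 min. The 4 hydroxylases tested summed to 1508, 1553 and 871 CPM in the controls and 159, 207 and 216 CPM at 40 min. Of these, 3 were called lower by DESeq2, against 1.55% of all genes. By edgeR without the 2 libraries that lay apart 3 were called lower, against 0.805%. The fourth, Lalb_Chr08g0245931, was scarce, with 1.11, 0.83 and 1.83 CPM in the controls and 0.92, 3.05 and 1.19 CPM at 40 min. Its log2 fold change was 0.45 (SE 0.83). The annotation names 9 such genes, and those not tested had too few reads.

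Upstream of abscisic acid, beta-carotene 3-hydroxylase makes the xanthophylls from which the hormone is built. Its gene Lalb_Chr03g0034851 stood at 75.0, 79.6 and 55.1 CPM in the controls and 18.0, 18.4 and 19.5 CPM at 40 min. It fell by 1.91 on the log2 scale (SE 0.21, edgeR adjusted p = 0.0167), and its treated plants were the most alike of the called lower genes, with a coefficient of variation of 4.22%. A second gene for this enzyme, Lalb_Chr06g0161321, stood at 8.12, 6.16 and 7.99 CPM against 5.70, 4.52 and 3.91 CPM and did not pass. The other carotenoid genes, 37 of the 38 tested, were not called. Over all 38, 1 member was higher and 2 were lower at an unadjusted p below 0.05. The 2 lower ones were the beta-carotene 3-hydroxylase genes above, the called one included. The 14 genes of abscisic acid synthesis proper had overlapping sums of 154 to 203 and 176 to 206 CPM, with 0 called by edgeR, 0 at an unadjusted p below 0.05 and 0 by DESeq2.

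Genes that respond to or perceive abscisic acid showed no common direction. Of 65 tested, 42 were above and 23 below 0, with 0 called by edgeR, 1 higher and 2 lower at an unadjusted p below 0.05 and 2 lower by DESeq2. Sums were 3295 to 3676 CPM in the controls and 3084 to 3700 CPM at 40 min. The lower ones were an ABA/WDS induced protein (Lalb_Chr03g0035371), with 171, 163 and 155 CPM in the controls and 53.4, 73.6 and 75.4 CPM at 40 min, and a late embryogenesis abundant protein (Lalb_Chr02g0154511). A dehydrin (Lalb_Chr02g0157301), of a family of protective proteins made in drying tissue, had 495, 443 and 551 CPM in the controls and 620, 632 and 580 CPM at 40 min, with a log2 fold change of 0.30 (SE 0.27) that did not pass.

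Enzymes of signal relay at the membrane were among the called genes. Phosphoinositide phospholipase C splits a membrane lipid into second messengers. Its gene Lalb_Chr23g0265071 stood at 90.5, 107 and 74.7 CPM in the controls and 26.4, 24.0 and 29.8 CPM at 40 min, and fell by 1.76 on the log2 scale (SE 0.22, edgeR adjusted p = 0.0266). Phosphatidylinositol 4-kinase (Lalb_Chr04g0254431) makes a precursor of that lipid, and stood at 80.0, 91.1 and 62.1 CPM in the controls and 31.7, 32.5 and 28.5 CPM at 40 min. This was the smallest of the 25 falls, at 1.33 on the log2 scale (SE 0.18, edgeR adjusted p = 0.0315). In neither gene did the groups overlap. Of 109 phosphoinositide genes tested, 46 lay above and 63 below 0. At an unadjusted p below 0.05, 8 were lower (7.34%, against 3.92% of all genes tested) and 1 higher (0.92%, against 2.07%). The 2 genes above were called, against 3 without the 2 libraries that lay apart.

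A MAP kinase kinase kinase of the STE11 family (Lalb_Chr10g0103451), the kind of enzyme that starts a MAP kinase cascade, stood at 54.9, 42.5 and 18.7 CPM in the controls and 4.25, 4.80 and 3.75 CPM at 40 min. It fell by 3.18 on the log2 scale (SE 0.36, edgeR adjusted p = 0.0215). The 70 MAP kinase cascade genes held 8 lower (11.4%) and 2 higher members (2.86%) at an unadjusted p below 0.05. Over all genes tested these shares were 3.92% and 2.07%. No other of the 70 was called. Another of them, Lalb_Chr20g0118801, had 3.15, 1.28 and 2.18 CPM in the controls and 8.67, 11.3 and 15.9 CPM at 40 min, and did not pass (edgeR adjusted p = 0.533). A serine/threonine kinase (Lalb_Chr24g0392911) stood at 714, 727 and 361 CPM in the controls and 92.7, 131 and 148 CPM at 40 min, and fell by 2.28 on the log2 scale (SE 0.34, edgeR adjusted p = 0.0474). Calcium signalling genes, which include sensors that respond to touch, summed to 9262 to 9977 CPM in the controls and 9413 to 9816 CPM at 40 min. Of 293 calcium genes tested 0 were called by edgeR and DESeq2 called 2 lower. At an unadjusted p below 0.05, 5 were higher (1.71%) and 6 lower (2.05%).

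Several regulators of transcription fell. A bHLH factor (Lalb_Chr25g0283231), of a large family of DNA-binding proteins, stood at 283, 248 and 102 CPM in the controls and 11.4, 13.2 and 3.42 CPM at 40 min. All treated plants were far below control replicate 3, and the fold change on the log2 scale was -4.50 (SE 0.56, edgeR adjusted p = 0.0266). The AT-hook motif nuclear-localized protein (Lalb_Chr20g0116811), which binds AT-rich DNA, stood at 378, 358 and 162 CPM against 36.8, 47.0 and 36.4 CPM and fell by 2.90 on the log2 scale (SE 0.31, edgeR adjusted p = 0.0167). A gene annotated as a WD40-like kinase or factor (Lalb_Chr03g0025941) stood at 140, 132 and 54.9 CPM against 2.84, 6.12 and 5.72 CPM, with a log2 fold change of -4.47 (SE 0.43, edgeR adjusted p = 0.0167). WD40 repeats form a platform on which other proteins assemble.

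Whole families of transcription factors held few called genes with all 12 libraries. AP2-ERF factors, a family that includes the ethylene and low-oxygen response factors, had 19 of 169 members lower and 4 higher at an unadjusted p below 0.05 (11.2% and 2.37%), with 0 called by edgeR (7 lower without the 2 libraries that lay apart) and 9 lower and 2 higher by DESeq2. Their summed level was 2487 to 3386 CPM in the controls and 1879 to 1985 CPM at 40 min. AP2-ERF gene Lalb_Chr06g0166561 stood at 519, 569 and 228 CPM in the controls and 40.6, 31.1 and 37.8 CPM at 40 min, and did not pass (log2 fold change -3.59 with an SE of 0.82, edgeR adjusted p = 0.235). MYB factors had 27 of 349 lower and 6 higher (7.74% and 1.72%), with 0 called by edgeR (12 lower and 1 higher without those 2 libraries) and 15 lower and 3 higher by DESeq2. Their sums, 6205 to 7299 and 4791 to 5365 CPM, did not overlap either. At an unadjusted p below 0.05, 3.92% of all genes tested were lower and 2.07% higher. Of 244 bHLH factors 18 were lower (7.38%) and 8 higher (3.28%), and of 56 AT-hook factors 6 were lower (10.7%) and 1 higher (1.79%). Of 101 WRKY factors 5 were lower (4.95%) and 4 higher (3.96%), and DESeq2 called 1 lower and 2 higher. Of 133 bZIP factors 5 were lower (3.76%) and 6 higher (4.51%), a share of lower genes near that of all genes. Yet bZIP sums, 3761 to 4394 CPM in the controls and 3423 to 3604 CPM at 40 min, did not overlap. Redox genes, described below, also had separate sums, 14950 to 15600 and 14120 to 14790 CPM. Separate sums were thus also found in lists without a raised share of lower members. The edgeR fit without the 2 libraries that lay apart called 5 bHLH, 2 WRKY, 1 AT-hook and 0 bZIP factors, all lower.

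A cysteine dioxygenase (Lalb_Chr06g0175451) was called among the genes of low oxygen. In Arabidopsis such enzymes act as oxygen sensors: they oxidise the tips of response factors and mark them for breakdown, and their own genes are switched on when oxygen is low. This gene stood at 115, 123 and 53.6 CPM in the controls and at 11.9, 10.4 and 16.2 CPM at 40 min, and fell by 2.92 on the log2 scale (SE 0.42, edgeR adjusted p = 0.0417). Of 9 cysteine dioxygenase genes tested 8 lay below 0, 6 were lower at an unadjusted p below 0.05, and DESeq2 called 6. Their levels summed to 1047, 1229 and 524 CPM in the controls and 130, 109 and 168 CPM at 40 min. Gene Lalb_Chr02g0159581 lay just past the threshold, with 292, 315 and 124 CPM in the controls and 16.1, 19.2 and 32.7 CPM at 40 min (log2 fold change -3.43 with an SE of 0.53, edgeR adjusted p = 0.0564). Another, Lalb_Chr14g0364741, had 5.42, 6.78 and 4.42 CPM in the controls and 0 reads in all 3 treated plants, and did not pass.

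Most other low-oxygen genes, but not all, had the same sign without passing the test. The whole list held 30 tested genes, 22 of them below 0, with a median log2 fold change of -0.91. At an unadjusted p below 0.05 14 were lower (46.7%, against 3.92% of all genes tested) and 0 higher. DESeq2 called 10 lower, and edgeR called 8 lower without the 2 libraries that lay apart. Pyruvate decarboxylase Lalb_Chr01g0023181, the first enzyme of ethanol fermentation, stood at 2507, 2404 and 1190 CPM in the controls and 282, 200 and 367 CPM at 40 min (log2 fold change -2.85 with an SE of 0.71, edgeR adjusted p = 0.283). Lactate dehydrogenase Lalb_Chr05g0225731 stood at 1038, 870 and 410 CPM against 136, 123 and 154 CPM (log2 fold change -2.49 with an SE of 0.52, edgeR adjusted p = 0.177). In each of these control replicate 3 stood between the other controls and the treated plants. The most abundant member, alcohol dehydrogenase 1 (Lalb_Chr23g0271341), stood at 3539, 2758 and 1833 CPM against 486, 492 and 991 CPM. It did not pass (log2 fold change -2.05 with an SE of 0.87, edgeR adjusted p = 0.81). At 20 min this gene had 23820, 902 and 15680 CPM in replicates 1 to 3. Of 9 alcohol dehydrogenases tested 4 lay above and 5 below 0.

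Summed over the 30 low-oxygen genes, the level was 9875, 9261 and 5435 CPM in control replicates 1 to 3 and 1837, 1845 and 2776 CPM in the treated plants. Untreated plants were thus the higher group, with a mean of 8190 CPM (SD 2406) against 2153 CPM (SD 540). Their wider spread in CPM went with that higher level. The oxygen supply of the solution is not given in the labels, and its part in the result was not tested. The early nodulin-93 genes, named for root nodules, summed to 850, 879 and 387 CPM in the controls and 71.0, 59.5 and 186 CPM at 40 min, with 4 of 5 below 0. Within the same 12-gene nodule list a leghemoglobin reductase (Lalb_Chr07g0181861) stood at 295, 259 and 254 CPM against 306, 229 and 286 CPM, which overlap. At 20 min, early nodulin-93 gene Lalb_Chr13g0302011 had 3455, 1.06 and 2066 CPM in replicates 1 to 3, so plants of that group differed widely in it.

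Proteins of turnover and folding made up another part of the called genes. A RING-type E3 ubiquitin ligase (Lalb_Chr20g0116861), which tags proteins for breakdown, stood at 113, 117 and 54.4 CPM in the controls and 6.89, 9.47 and 9.14 CPM at 40 min, a log2 fold change of -3.48 (SE 0.46, edgeR adjusted p = 0.0300). An F-box protein with a MYND zinc finger (Lalb_Chr12g0206181), F-box proteins being the part of ubiquitin ligases that picks the target, stood at 13.5, 14.1 and 9.45 CPM against 1.32, 1.44 and 1.77 CPM. A DnaJ protein (Lalb_Chr23g0278381), a helper of the Hsp70 chaperones, stood at 57.1, 54.7 and 39.9 CPM against 10.9, 12.5 and 6.76 CPM. These 2 fell by 3.03 and 2.33 on the log2 scale (SE 0.40 and 0.33, edgeR adjusted p = 0.0300 and 0.0406). Of 258 chaperone genes 130 lay above and 128 below 0, and the sums were 11720 to 15850 and 10690 to 16480 CPM.

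A thioredoxin-like protein (Lalb_Chr03g0032811), of a family that reduces disulfide bonds, stood at 150, 155 and 67.2 CPM in the controls and 8.75, 10.4 and 13.9 CPM at 40 min. It fell by 3.49 on the log2 scale (SE 0.38, edgeR adjusted p = 0.0167), and no other of 217 redox genes was called. At an unadjusted p below 0.05, 3 were higher (1.38%, against 2.07% of all genes tested) and 6 lower (2.8%, against 3.92%). A PRA1 family protein (Lalb_Chr04g0250371), of membrane traffic, stood at 47.4, 29.2 and 27.0 CPM against 2.58, 3.41 and 2.90 CPM. A GTD-binding protein (Lalb_Chr02g0154161), of a family that in Arabidopsis binds the tail of myosin motors, stood at 170, 177 and 82.7 CPM against 14.5, 13.5 and 17.3 CPM. These fell by 3.54 and 3.24 on the log2 scale (SE 0.42 and 0.43, edgeR adjusted p = 0.0216 and 0.0300), with no overlap between the groups.

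An ACT domain repeat protein (Lalb_Chr09g0324571), of a family related to amino acid binding domains, stood at 51.5, 38.8 and 22.3 CPM in the controls and 2.96, 4.23 and 2.01 CPM at 40 min. It fell by 3.62 on the log2 scale (SE 0.47, edgeR adjusted p = 0.0300). An rmlC-like jelly roll protein (Lalb_Chr02g0149241) stood at 10.8, 15.4 and 7.86 CPM against 2.18, 2.06 and 1.89 CPM and fell by 2.47 (SE 0.36, edgeR adjusted p = 0.0417). The 3 lower genes with no named function were Lalb_Chr04g0260571, Lalb_Chr01g0019931 and Lalb_Chr02g0146851, with log2 fold changes of -1.87, -3.77 and -3.36. The first of them was an exception to the order of the controls, with 94.6, 126 and 109 CPM in replicates 1 to 3.

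A phloem protein gene (Lalb_Chr01g0018441) stood at 195, 192 and 108 CPM in the controls and 34.2, 44.6 and 36.5 CPM at 40 min, and fell by 2.10 on the log2 scale (SE 0.28, edgeR adjusted p = 0.0300). Phloem proteins accumulate in the sieve tubes that carry sucrose. The phloem list of 27 genes, this gene included, had 10 above and 17 below 0. It summed to 480 to 544 CPM in the controls and 314 to 385 CPM at 40 min. Much of that difference was this gene itself. Control and 40 min means were 522 and 339 CPM for the list and 165 and 38.4 CPM for the gene. The part of phloem markers in the result was not tested. A second one, Lalb_Chr05g0225051, stood at 40.8, 36.4 and 18.9 CPM against 5.89, 7.68 and 8.43 CPM and did not pass (edgeR adjusted p = 0.173). Of the phloem genes 3 were called lower without the 2 libraries that lay apart.

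A WD40/YVTN repeat gene (Lalb_Chr22g0355491) behaved differently from the other 24 lower genes. It had 4.23, 1.65 and 2.59 CPM in the controls and 0 reads in the 3 treated plants, which at a floor of 3 reads for each library makes it at least 64.8-fold lower, a bound that covers counting error only (edgeR adjusted p = 0.0304). At 20 min it stood at 5.46, 2.33 and 5.02 CPM and at 80 min at 1.63, 1.53 and 6.92 CPM. Reads were thus missing in the 40 min plants and in no other library.

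**Figure D4:**
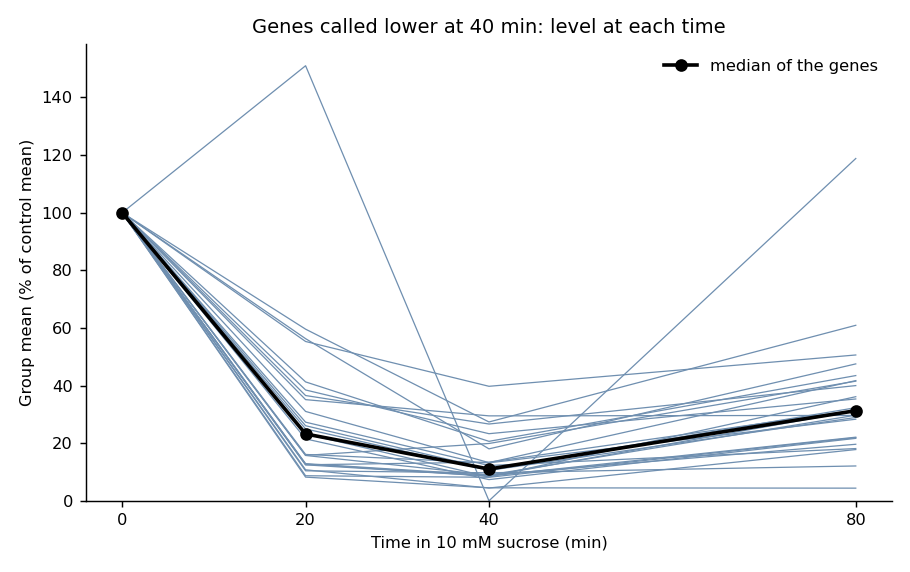
Group means of the 25 genes called lower at 40 min as a percentage of the control mean, against the time in 10 mM sucrose. Thin lines are genes and the black line is their median, which passes through 23.2% at 20 min, 11.0% at 40 min and 31.3% at 80 min. The line that starts upward is the WD40/YVTN repeat gene.

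The same controls serve all times, and since the genes were chosen for low values at 40 min the 3 levels are given side by side as a description. Relative to the control mean, the median of the 25 genes was 23.2% at 20 min (8.21% to 151%), 11.0% at 40 min (0% to 39.8%) and 31.3% at 80 min (4.39% to 119%). The bHLH factor, for example, stood at 10.8%, 4.43% and 17.8%, and the 8'-hydroxylase at 23.2%, 8.28% and 36.1%. The AT-hook gene was already at 12.5% after 20 min and stood at 13.4% and 31.5% later, and phospholipase C at 35.1%, 29.5% and 29.6%. Tests between sucrose times do not compare levels with the controls, although the controls enter the shared estimate of the spread. At 40 against 20 min edgeR called 0 genes, with 4106 (14.2%) at an unadjusted p below 0.05 and 1439 (4.99%) called by DESeq2. At 80 against 40 min edgeR called 0 genes, with 1307 (4.51%) at an unadjusted p below 0.05 and 248 (0.86%) called by DESeq2. Without the 2 libraries that lay apart these counts were 3140 and 669. For the 26 genes the smallest edgeR adjusted p was 0.214 at 40 against 20 min and 0.125 at 80 against 40 min.

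Cleavage of the added sugar was described by 42 genes, 26 above and 16 below 0, of which 0 were called by edgeR. At an unadjusted p below 0.05 2 were higher and 3 lower, and DESeq2 called 1 in each direction. Sucrose synthase Lalb_Chr12g0200341, which splits sucrose into fructose and UDP-glucose, ranged from 286 to 1925 CPM over the controls, with 1925, 745 and 286 CPM, and stood at 40.1, 65.0 and 36.4 CPM at 40 min. The groups did not overlap, and the gene did not pass (log2 fold change -4.38 with an SE of 0.95, edgeR adjusted p = 0.198). It was called lower without the 2 libraries that lay apart (edgeR adjusted p = 0.0419), and DESeq2 called it with all 12. Sucrose synthase Lalb_Chr11g0073991 stood at 993, 1092 and 716 CPM against 182, 573 and 450 CPM. Invertases, which split sucrose into glucose and fructose, had 12 of 16 members above 0, a median log2 fold change of 0.44 and overlapping sums of 704 to 1174 and 853 to 1125 CPM. Fructokinases and hexokinases, which phosphorylate the products, summed to 1456 to 1858 CPM in the controls and 909 to 1262 CPM at 40 min.

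Sugar transporters showed no shift as a list. Of 91 tested, 47 lay above and 44 below 0, 3 in each direction had an unadjusted p below 0.05, and 0 were called by edgeR, against 1 higher and 2 lower by DESeq2. A sugar transporter of the major facilitator family (Lalb_Chr01g0007241) stood at 74.7, 96.2 and 75.0 CPM in the controls and 14.6, 21.9 and 24.1 CPM at 40 min, without overlap, and did not pass (log2 fold change -2.02 with an SE of 0.36, edgeR adjusted p = 0.116). SWEET transporters, which let sugars leave cells down their gradient, summed to 314 to 442 CPM in the controls and 313 to 451 CPM at 40 min.

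Glycolysis genes held 9 lower and 3 higher members of 88 at an unadjusted p below 0.05 (10.2% and 3.41%), with 0 called by edgeR and 3 lower and 1 higher by DESeq2. In edgeR without the 2 libraries that lay apart 5 were called lower, both of the following phosphofructokinases among them. ATP-dependent phosphofructokinase Lalb_Chr14g0375211, a control point of the pathway, stood at 891, 981 and 395 CPM in the controls and 46.5, 72.5 and 66.0 CPM at 40 min (log2 fold change -3.62 with an SE of 0.85, edgeR adjusted p = 0.251). Its pyrophosphate-using counterpart (Lalb_Chr17g0338171) stood at 1447, 1553 and 729 CPM against 293, 264 and 341 CPM (log2 fold change -2.06 with an SE of 0.51, edgeR adjusted p = 0.280). An enolase (Lalb_Chr23g0274081) went the other way without passing, with 7.24, 5.15 and 10.6 CPM in the controls and 37.1, 14.8 and 29.6 CPM at 40 min. In all 3 genes the groups were separate.

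**Figure D5:**
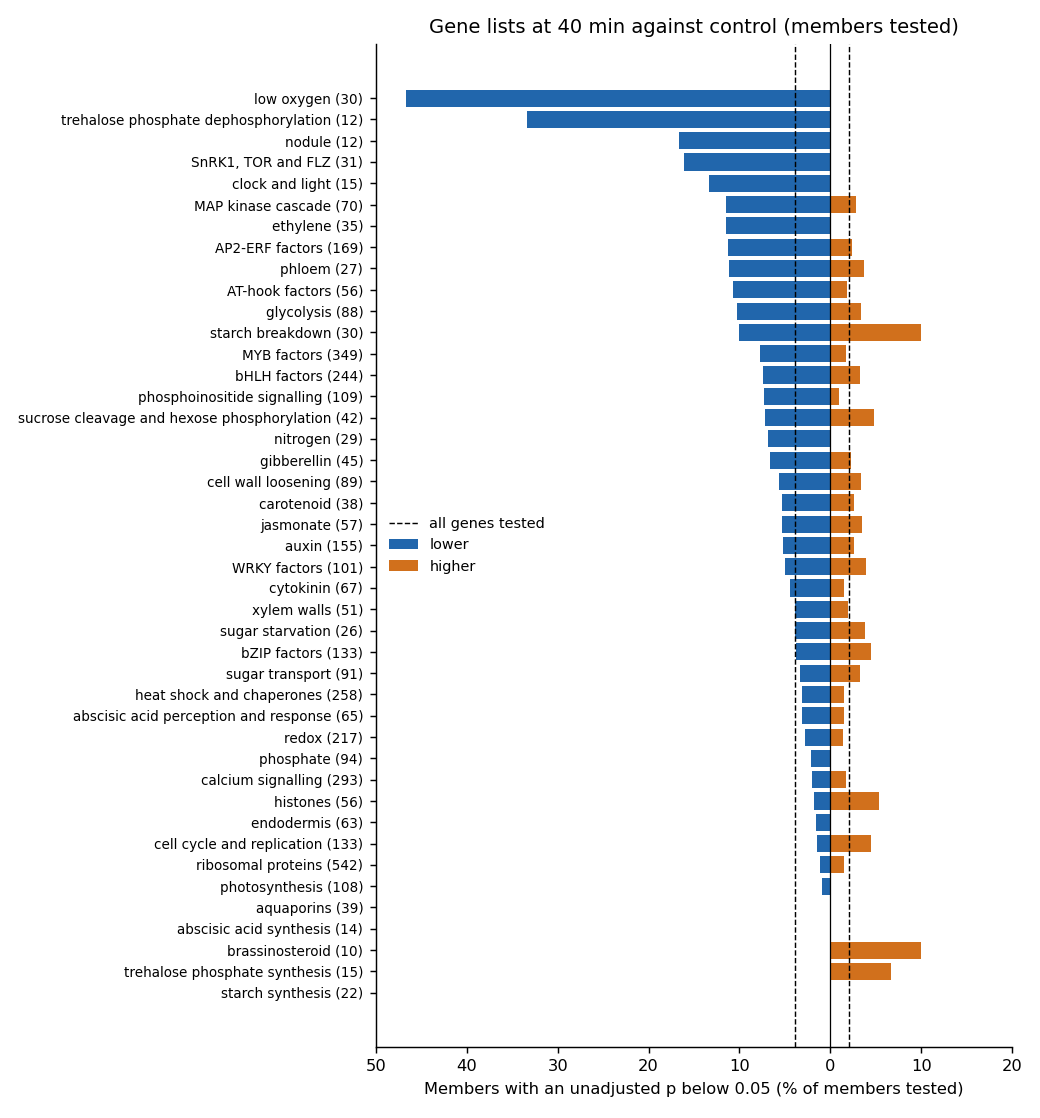
Share of the tested members of each gene list with an unadjusted p below 0.05 at 40 min, lower members to the left in blue and higher members to the right in orange, for lists of at least 10 tested genes (number in brackets). Dashed lines mark all genes tested, 3.92% lower and 2.07% higher. Low oxygen, at 46.7%, and trehalose phosphate dephosphorylation, at 33.3%, have the longest bars.

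Hormone lists other than abscisic acid had 0 members called by edgeR with all 12 libraries. Without the 2 that lay apart it called 4 auxin genes, 1 ethylene and 1 gibberellin gene lower. Ethylene genes had 4 of 35 lower at an unadjusted p below 0.05 (11.4%, against 3.92% of all genes tested) and 1 by DESeq2. An ethylene receptor (Lalb_Chr03g0037051) stood at 265, 250 and 75.5 CPM in the controls and 2.54, 1.23 and 8.69 CPM at 40 min, and did not pass (log2 fold change -5.57 with an SE of 1.64, edgeR adjusted p = 0.486). Auxin genes had 4 of 155 higher (2.58%, against 2.07% of all genes tested) and 8 lower (5.16%) at an unadjusted p below 0.05. DESeq2 called 4 of them lower. A small auxin-up RNA (Lalb_Chr20g0108621), of a family linked to cell expansion, stood at 202, 182 and 86.7 CPM against 23.2, 25.6 and 19.4 CPM (log2 fold change -2.79 with an SE of 0.52, edgeR adjusted p = 0.126). Lipoxygenases, a family of which some members start jasmonate synthesis, summed to 5849, 5547 and 5832 CPM in the controls and 1814, 2979 and 1830 CPM at 40 min. Here the 3 controls were alike, control replicate 3 included, and DESeq2 called 1 of 18 lower. The deposited names do not tell which lipoxygenases serve jasmonate. All 57 jasmonate genes had a median log2 fold change of 0.04, with 2 higher and 3 lower members at an unadjusted p below 0.05. A BZR1 homolog (Lalb_Chr05g0212971), of brassinosteroid signalling, stood at 27.3, 26.8 and 27.9 CPM against 39.3, 36.0 and 40.1 CPM and did not pass (edgeR adjusted p = 0.609). Gibberellin genes summed to 894 to 982 CPM in the controls and 1056 to 1510 CPM at 40 min, higher without overlap, although they had 1 of 45 members higher and 3 lower, and cytokinin genes 1 of 67 higher and 3 lower, at an unadjusted p below 0.05, with 2 gibberellin and 0 cytokinin genes called lower by DESeq2.

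Ribosomal, histone and cell cycle genes had 0 members called by edgeR with all 12 libraries and 0 without the 2 that lay apart. Over all genes tested 16549 of 28980 lay above 0. Of 542 ribosomal protein genes 446 lay above 0, with a median log2 fold change of 0.33 against 0.08 over all genes, but at an unadjusted p below 0.05 there were 8 higher and 6 lower members, and DESeq2 called 1 in each direction. The sums overlapped, at 53160, 47760 and 45430 CPM in the controls and 78080, 43490 and 65400 CPM at 40 min, where replicate 2 lay below every control. Histone genes had 50 of 56 above 0 and a median of 0.31, and again 40 min replicate 2, at 3922 CPM, lay within the range of the controls, 3529 to 4348 CPM. Cell cycle and replication genes had 89 of 133 above 0, with sums of 2514 to 2729 and 2491 to 3293 CPM. Cell wall loosening genes such as expansins summed to 4840 to 5147 CPM against 4977 to 5439 CPM, and aquaporins, with 17 above and 22 below 0, to 14340 to 19360 CPM against 13580 to 16150 CPM. Phosphate genes, which respond when cluster roots form, also overlapped in sum, at 2313 to 2710 and 2393 to 3129 CPM, and nitrogen genes, with 9 above and 20 below 0, did not, at 5734 to 6686 and 4668 to 5247 CPM.

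Large differences were also found in genes whose level switched between plants. The following are the 6 largest differences in each direction among uncalled genes with an unadjusted p below 0.05, a mean of at least 5 CPM, separate groups and a named function. Among the higher ones a Tom22 subunit of the mitochondrial import pore (Lalb_Chr03g0036961) stood at 1.22, 0.34 and 0.32 CPM in the controls and 39.3, 23.1 and 32.5 CPM at 40 min (edgeR adjusted p = 0.109). At 20 min it had 0.85, 0.82 and 2.36 CPM, and at 80 min 40.6, 3.17 and 20.8 CPM. A DNAJ-containing protein gene (Lalb_Chr16g0376201) had up to 0.02 CPM in the controls and 13.6, 25.1 and 0.05 CPM at 40 min, so the third treated plant was near the controls. The other higher genes were for a histidine phosphatase (Lalb_Chr08g0242651), a WW and FF domain protein (Lalb_Chr22g0355781), an oxidoreductase (Lalb_Chr15g0085021) and a PHD chromatin regulator (Lalb_Chr03g0027501), whose treated plants ranged from 4.66 to 30.1, 4.31 to 40.0, 3.10 to 31.4 and 8.08 to 31.5 CPM.

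Among the lower ones a serine/threonine kinase (Lalb_Chr19g0138511) had 92.8, 105 and 79.4 CPM in the controls and 0 in all 3 treated plants, yet did not pass (edgeR adjusted p = 0.50). It also had 0.02 CPM in 20 min replicate 1 and 0 in 80 min replicate 3, where the other plants of those groups had 71.8 to 112 CPM, so it was on or off in single plants. An F-box gene with leucine-rich repeats (Lalb_Chr08g0244081) had 15.6, 1.85 and 160 CPM in the controls and 0 in the treated plants. A phosphoribulokinase (Lalb_Chr05g0215611), an enzyme of the Calvin cycle, had 98.2, 87.9 and 26.4 CPM against 0.06, 0.59 and 0.10 CPM. A PARP and RST domain protein (Lalb_Chr11g0071321) had 274, 305 and 109 CPM against 0.52, 0.53 and 3.58 CPM. A triose-phosphate isomerase (Lalb_Chr22g0349931) had 1.24, 60.4 and 61.0 CPM against 0.18, 0.06 and 0.62 CPM, and a cysteine dioxygenase (Lalb_Chr02g0157331) 12.5, 21.2 and 4.6 CPM against 0, 0 and 0.11 CPM. In 20 min replicate 2 the phosphoribulokinase and PARP genes stood at 2.07 and 0.45 CPM, against 40.0 to 81.0 and 198 to 271 CPM in the other plants of that group.

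The fit without the 2 libraries that lay apart called 12 genes higher (0.0408% of 29445), and they were looked at after their values were seen. SOSEKI was 1 of them and the only one also called with all 12 libraries. A Dof zinc finger factor (Lalb_Chr08g0240051), of a plant family of DNA-binding proteins, had 0 reads in the 3 controls and 5.23, 4.6 and 3.51 CPM at 40 min, at least 83.6-fold higher at a floor of 3 reads per library. With all 12 libraries it did not pass (edgeR adjusted p = 0.248). A histone H3 lysine 4 methyltransferase (Lalb_Chr15g0083831), which marks active genes, stood at 5.52, 5.86 and 4.82 CPM in the controls and 24.0, 14.5 and 19.0 CPM at 40 min. A GATA factor (Lalb_Chr02g0142221), with 19.5, 17.2 and 24.1 CPM against 39.7, 41.8 and 40.7 CPM, and a C2H2 zinc finger factor (Lalb_Chr06g0169421), with 1.01, 0.96 and 1.89 CPM against 5.28, 5.71 and 5.46 CPM, varied little among treated plants. None of these genes had overlapping groups. In this fit edgeR also called 1 sugar transporter, 1 abscisic acid response gene, 2 redox, 3 chaperone, 2 cell wall loosening, 1 aquaporin and 1 endodermis gene lower, and 1 calcium signalling gene higher. MAP kinase cascade genes had 1 call in each direction, and the counts for starch breakdown (2) and carotenoid genes (1) were as with all 12 libraries.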

How the data were processed

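The labels assign 3 plants to each of 4 groups. The authors deposited raw read counts per gene and library, FPKM per gene and library, and, from DESeq2, a base mean (a signal averaged after division by size factors), log2 fold changes with p-values, raw and adjusted, per the file headers. The submitters' processing notes name bcl2fastq 2.20, FastQC, Trimmomatic 0.32, HISAT2, StringTie and DESeq2. Not given in the sources used here are genome build, strand setting of the counting and handling of multi-mapping reads, so members of multigene families and overlapping or antisense genes are uncertain, and no coordinates are given. Of 33388 identifiers 33388 matched RefSeq's table for CNRS_Lalb_1.0, used for gene order only.

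Counts were tested with edgeR 4.0.16 (R 4.3.3): filterByExpr (28980 genes kept), TMM, and the robust quasi-likelihood F test over all 12 libraries by group (8 residual degrees of freedom, common dispersion 0.449), with Benjamini-Hochberg adjustment over all genes and calls at an adjusted p below 0.05. SE was taken as |log2 fold change|/√F. DESeq2 1.42.0, other scalings, filters, fits and left-out libraries were alternatives. The scripts were tested on simulated counts with 50 genes changed at each size. The main fit called 0 of those changed 2-fold and 17 of those changed 4-fold. It called 38 of those changed 8-fold and 38 of those changed 16-fold. A list with 0 called genes can therefore still hold changed ones. The 44 gene lists match words in the deposited protein names. They and the genes named were chosen with earlier results of these data known. Chosen for naming were all called genes and the 6 largest uncalled differences in each direction. From each list the 2 members with the smallest p and the one with the highest mean were chosen, though not all are printed. Further members were added after their values were seen, as were subgroups of lists. Floors of 3 reads and depths cover counting error only, since reads carried no molecular identifiers.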

Additional observations from a re-analysis of the deposited data

How the results depend on the processing

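Of the 26 genes called at 40 min against control, every one kept its direction in all fits that were run, and all 26 were called by DESeq2 and by edgeR without the pair of 20 min replicate 2 and 80 min replicate 3. At 40 min against control the count was 575 with DESeq2, 249 without that pair, 1 with the 6 compared libraries alone, and 0 to 156 when single libraries were left out. It was 27 with RLE scaling, 23 with no filter on low counts and 26 without robust settings. At 40 against 20 min, where the main count was 0, DESeq2 called 1439 genes, edgeR without the pair 3140, and the fits with a single library left out 0 to 1450. At 80 against 40 min, with a main count of 0, these counts were 248, 669 and 0 to 182. The cause was not tested. With the replicate number as a block, edgeR called 0 genes at 40 min against control. The labels do not say whether these numbers mark a shared batch or harvest, and this was not tested. The correlation of the deviations of same-numbered plants ran from -0.223 to 0.162 over 18 pairs, and 3 exceeded 0.1. Over the named genes, 2382 alternative values kept direction and side of the threshold, 259 kept direction and were no longer past it, and 113 came past it. In a further 36 values, of genes that were not called, the sign changed. Depth limits the SOSEKI fold change, which rests on control libraries of 2, 7 and 0 reads, and the folds of genes at 0 reads in a group.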
